A study of Mus musculus with 4 samples.

Results

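*Actb*, *Actg1*, *Tmsb4x*, *Tmsb10*, *Pfn1*, *Cfl1*, *Arpc2*, *Arpc3* and *Arpc5l* are 9 of the 19616 genes listed in at least 1 of the single-cell libraries of gastrulating mouse embryos. They encode the 2 cytoplasmic actins, 2 thymosins, profilin, cofilin and 3 subunits of the Arp2/3 complex. The set was chosen by its *Actb* values, which were much higher in the OB-EB library than in the others, so those *Actb* ratios describe the choice and support nothing. The question was whether the other 8 genes shared it.

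The study labelled cells that had expressed *T* (Brachyury), the gene that marks the primitive streak, and followed them into the heart. All embryos carried the genotype T nEGP-CreERT2/+; R26R tdTomato/tdTomato, so that Cre made from the *T* locus switched on tdTomato after tamoxifen (0.08 mg/bw by gavage). Embryos at the mid-streak to late-streak stage (MS-LS) received it at E6+5h and were dissected at E6+21h, those at the no-bud to early-bud stage (OB-EB) at E6+21h and E7+3h, and those at the early head fold stage (EHF) at E7+7h and E7+14h. Embryos of a stage were pooled into 1 library of dissociated cells, so a difference between stages cannot be told apart from a difference between libraries, and no test between stages could be made.

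Actin exists in cells as monomers and as filaments. Thymosins hold monomers in reserve, profilin passes them to growing filament ends, cofilin severs old filaments, and the Arp2/3 complex starts new branches. *Actb* and *Actg1* are read by most cells and are usually treated as steady reference genes, while their transcription can respond to the monomer pool through the factor SRF and its MRTF cofactors, which bind the CArG box.

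The MS-LS library held 3635 cells and 17966956 unique molecular identifiers (UMIs). The OB-EB library held 3994 cells and 12181436 UMIs, and the EHF library 3494 cells and 20376539 UMIs. The median cell had 4251, 2620.5 and 5584 UMIs, in that order, so OB-EB was the shallowest per cell. Mitochondrial transcripts took 1.84%, 1.94% and 1.13% of UMIs, ribosomal protein transcripts 27.2%, 27.4% and 27.2%, and *Malat1* 0.353%, 0.595% and 0.203%. Each pair of libraries shared between 12 and 18 cell barcodes. Levels are given as CPM (UMIs of a gene per 1e6 UMIs of the library or cell class), with exact Poisson 95% intervals. Ratios carry exact 95% intervals too, and all of these cover counting error only. A gene was called higher or lower where its CPM differed by at least 1.5-fold. A difference between whole libraries mixes a change of level within cells with a change in the kinds of cells, so each member was also compared within cell classes.

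On GRCm38, *Actb* lies on chromosome 5 (142903115 to 142906754, minus strand) and *Actg1* on chromosome 11 (120345690 to 120348542, minus). *Tmsb4x* is X-linked (167207093 to 167209315, minus), and *Tmsb10* lies on chromosome 6 (72957347 to 72958748, minus). *Pfn1* shares chromosome 11 with *Actg1* (70651850 to 70654644, minus), and *Cfl1* is on chromosome 19 (5490455 to 5495201, plus). The Arp2/3 genes are spread over chromosomes 1 (*Arpc2*, 74236084 to 74268209, plus), 5 (*Arpc3*, 122391878 to 122414184, plus) and 2 (*Arpc5l*, 39005348 to 39015877, plus). The nearest of these to *Actb* is *Arpc3*, on the same chromosome.

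RefSeq start sites on GRCm38.p6 were at hand for 7 of the 9 members, without *Actb* and *Arpc5l*. The 250 bases before the start are shown for *Actg1*, the other cytoplasmic actin, for *Tmsb10*, the member nearest to *Actb* in its OB-EB excess over MS-LS, and for *Pfn1*, the member next to it. Capitals mark the CArG box in *Actg1* (CC, 6 bases that are each A or T, then GG) and GGGCGG or its reverse complement, the core of the GC box, in the other 2. The *Actg1* stretch is chr11:120348496-120348745, the *Tmsb10* stretch chr6:72958749-72958998 (the start farthest 5′ of 3) and the *Pfn1* stretch chr11:70654651-70654900, all read from the minus strand.
Actg1: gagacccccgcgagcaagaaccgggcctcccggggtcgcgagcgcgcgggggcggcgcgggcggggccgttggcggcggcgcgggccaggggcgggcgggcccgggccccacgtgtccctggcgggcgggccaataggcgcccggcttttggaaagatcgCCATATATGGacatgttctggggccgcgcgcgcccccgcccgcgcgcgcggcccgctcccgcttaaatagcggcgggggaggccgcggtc
Tmsb10: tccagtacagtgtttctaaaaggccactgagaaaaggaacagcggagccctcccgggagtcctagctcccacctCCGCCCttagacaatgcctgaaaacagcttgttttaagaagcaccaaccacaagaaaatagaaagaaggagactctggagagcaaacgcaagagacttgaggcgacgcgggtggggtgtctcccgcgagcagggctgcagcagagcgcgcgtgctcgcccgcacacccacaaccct
Pfn1: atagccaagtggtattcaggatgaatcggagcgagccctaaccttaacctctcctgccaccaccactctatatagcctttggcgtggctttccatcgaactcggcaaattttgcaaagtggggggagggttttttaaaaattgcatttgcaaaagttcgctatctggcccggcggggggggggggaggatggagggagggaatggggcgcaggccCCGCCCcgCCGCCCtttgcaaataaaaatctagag
Searched on both strands from 250 bases before to 50 bases after the start, a CArG box was found in 1 of the 7 members, *Actg1*, and in 1.63% of 32851 mouse promoter windows of the same length. GGGCGG was found in all 7 and in 35.7% of windows, and CCAAT in 2, *Actg1* and *Cfl1*, and in 37.4% of windows. A match is a run of letters and was not tested as a binding site, and the *Actb* window was not searched.

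*Actb* itself stood at 2433 CPM in MS-LS (95% interval 2410 to 2456), 15008 CPM in OB-EB (14940 to 15077) and 1316 CPM in EHF (1301 to 1332). It was the gene with the second highest UMI count in OB-EB, where it took 1.501% of all UMIs, against rank 73 in MS-LS and rank 124 in EHF. The OB-EB level was 6.17-fold that of MS-LS (log2 2.63, 2.61 to 2.64) and 11.4-fold that of EHF (log2 3.51, 3.49 to 3.53). EHF was below MS-LS by 0.89 on the log2 scale. Over all genes with at least 100 UMIs in the pair of libraries, *Actb* ranked 20 of 9706 by its ratio of OB-EB to MS-LS and 70 of 10490 by that of OB-EB to EHF.

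*Actg1* went the other way. Its level was 1378 CPM in MS-LS (1361 to 1395), 1025 CPM in OB-EB (1008 to 1044) and 2592 CPM in EHF (2570 to 2614). OB-EB was therefore the lowest of the 3 libraries for γ-actin, with a log2 ratio of -0.43 to MS-LS (-0.46 to -0.40), which did not reach 1.5-fold, and of -1.34 to EHF (-1.37 to -1.31), which did. The lower level than in MS-LS was found in cells under 6000 UMIs. In cells of 6000 to 10000 UMIs the levels were 1388 CPM in OB-EB and 1371 CPM in MS-LS. Above 10000 UMIs they were 1896 CPM, in 20 OB-EB cells, and 1721 CPM. The ratio of *Actb* to *Actg1* UMIs was 1.77 in MS-LS, 14.6 in OB-EB and 0.508 in EHF. Of the UMIs of both genes, *Actb* held 63.8%, 93.6% and 33.7%. Summed, they came to 3811, 16034 and 3909 CPM, so MS-LS and EHF were close in their total while the 2 genes had changed places. The lower *Actb* of EHF was not found at every depth. In cells of 2000 to 3000 UMIs it stood at 2269 CPM in EHF and 2124 CPM in MS-LS. The counts of the 2 genes were not scaled for capture of either transcript, so this ratio is compared only between libraries.

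*Tmsb10* was the one other member higher in OB-EB than in both of the other libraries. It encodes thymosin β10, a monomer-binding peptide, and stood at 2474 CPM in MS-LS (2451 to 2497), 5714 CPM in OB-EB (5671 to 5756) and 3511 CPM in EHF (3485 to 3536). The ratio was 2.31-fold to MS-LS (log2 1.21, 1.19 to 1.22) and 1.63-fold to EHF (log2 0.70, 0.69 to 0.72). Its excess was thus smaller than that of *Actb*, with intervals that did not meet, and over EHF it dropped below 1.5-fold in 3 of 12 alternative settings. Over EHF it also differed with the depth of the cells, as given below.

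*Tmsb4x*, which encodes the related thymosin β4, was highest in EHF. It stood at 150.5 CPM in MS-LS (144.9 to 156.3), 187.8 CPM in OB-EB (180.2 to 195.7) and 419.5 CPM in EHF (410.7 to 428.5). The log2 ratio of OB-EB was 0.32 to MS-LS (0.24 to 0.40), under 1.5-fold, and -1.16 to EHF (-1.23 to -1.09). The 2 thymosins therefore differed in direction between OB-EB and EHF.

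*Pfn1* and *Cfl1* also had their highest library level in OB-EB, for *Cfl1* only just above MS-LS. Both differed with the depth of the cells, as given below. Profilin 1 stood at 2911 CPM in MS-LS (2886 to 2936), 4190 CPM in OB-EB (4154 to 4226) and 2039 CPM in EHF (2020 to 2059). That was 1.44-fold MS-LS, short of the threshold that it passed in 2 of 12 alternative settings (log2 0.53, 0.51 to 0.54), and 2.06-fold EHF (log2 1.04, 1.02 to 1.06). Cofilin 1 stood at 1849 CPM in MS-LS (1829 to 1869), 2005 CPM in OB-EB (1979 to 2030) and 901 CPM in EHF (888 to 914). For cofilin the OB-EB and MS-LS levels were close (log2 0.12, 0.09 to 0.14, and -0.06 without extra-embryonic and unnamed cells), and the contrast lay with EHF (log2 1.15, 1.13 to 1.18), which was also below MS-LS (log2 -1.04).

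The Arp2/3 subunits were all lowest in OB-EB by CPM, although relative to the median of all genes *Arpc5l* was above EHF (log2 0.15). *Arpc2*, part of the core that holds the complex together, stood at 271.5, 184.3 and 310.2 CPM in MS-LS, OB-EB and EHF. *Arpc3* stood at 127.6, 104.3 and 161.9 CPM, and *Arpc5l*, an isoform of the smallest subunit, at 255.3, 151.1 and 176.2 CPM. Against MS-LS the log2 ratios were -0.56 (-0.63 to -0.49), -0.29 (-0.39 to -0.19) and -0.76 (-0.84 to -0.68), and only *Arpc5l* reached 1.5-fold. Against EHF they were -0.75 (-0.82 to -0.68), -0.63 (-0.73 to -0.54) and -0.22 (-0.30 to -0.14), and here *Arpc2* and *Arpc3* reached it while *Arpc5l* did not.

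**Figure D1:**
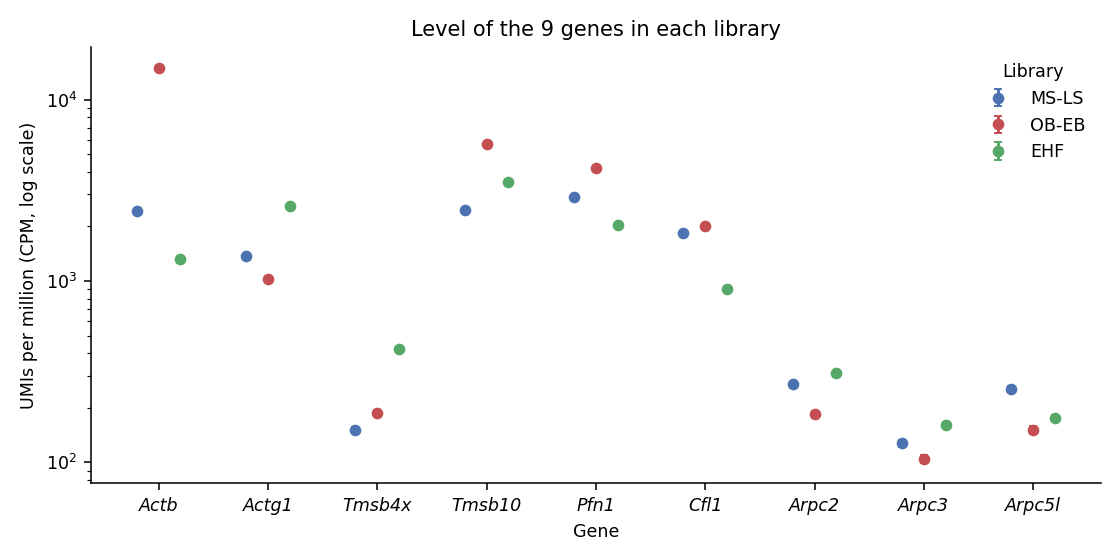
Level of each of the 9 genes in each of the 3 libraries, in CPM on a log axis, with exact 95% Poisson intervals that are mostly smaller than the points. *Actb* peaks in OB-EB at 15008 CPM, while *Actg1* and the Arp2/3 subunits have their lowest point there.

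Counted over the set, 2 of the 9 members were higher in OB-EB than in MS-LS, *Actb* and *Tmsb10*, beside 11.3% of the 9706 genes tested. *Arpc5l* was the member that was lower, beside 13.6%, and 6 were neither. *Actb* was chosen for this contrast, and without it 1 of 8 was higher. Against EHF, 4 members were higher (*Actb*, *Tmsb10*, *Pfn1* and *Cfl1*, beside 11% of 10490 genes) and 4 lower (*Actg1*, *Tmsb4x*, *Arpc2* and *Arpc3*, beside 37%). *Actb* was chosen for its excess over EHF too, which leaves *Tmsb10*, *Pfn1* and *Cfl1* to be read beside the 11%. The median of all genes in that comparison was -0.37 on the log2 scale, and relative to it 4 members were higher and 2 lower. Against MS-LS that median was -0.09. Between the outer stages, EHF had 2 members higher than MS-LS, *Actg1* and *Tmsb4x*, beside 28.4% of 10799 genes, and 2 lower, *Actb* and *Cfl1*, beside 8.84%. At 2-fold, *Actb* and *Tmsb10* were still higher than in MS-LS (4.17% of all genes) and no member was lower (3.28%). Against EHF 3 members were 2-fold higher (5.55%), *Actb*, *Pfn1* and *Cfl1*, and 2 were lower (15.2%), *Actg1* and *Tmsb4x*. From MS-LS to EHF *Tmsb4x* was 2-fold higher (11%) and *Cfl1* lower (4.53%). *Actb* is in every count of members higher in OB-EB by the choice of the set. These comparisons share libraries and are not independent of each other.

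**Figure D2:**
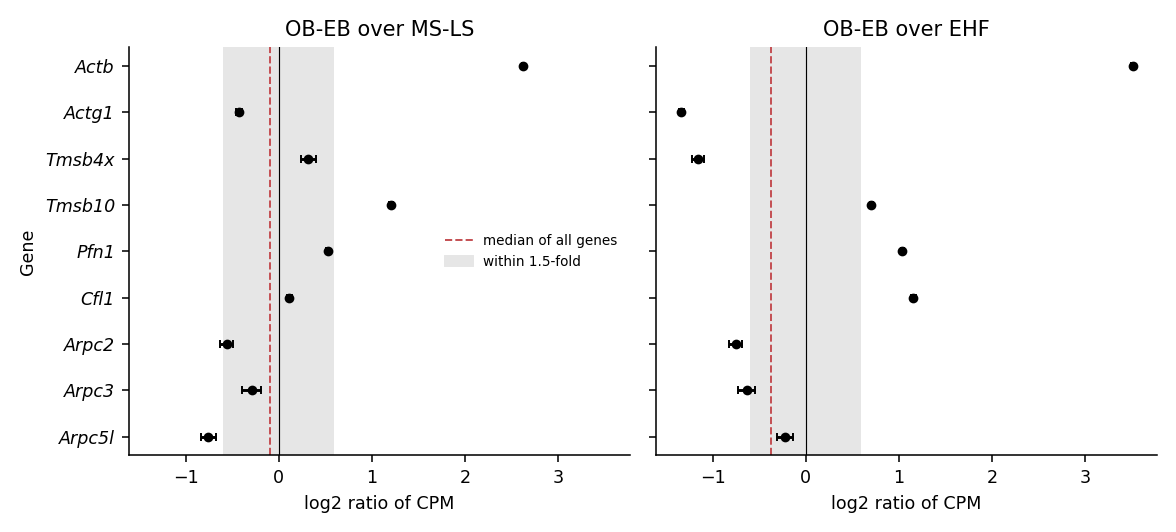
Log2 ratio of CPM for each of the 9 genes, OB-EB over MS-LS and OB-EB over EHF, with exact 95% intervals for counting error, a grey band within 1.5-fold and a dashed line at the median of all genes. *Actb* lies at 2.63 and 3.51, the next highest ratio is 1.21 for *Tmsb10* against MS-LS, and *Actg1* lies below 0 in both.

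Cells were clustered within each library and named from marker genes, so that the same class could be set side by side. The names are written with "-like" because they rest on markers alone. Of the cells, 811 in MS-LS, 1558 in OB-EB and 1023 in EHF stayed in clusters without a name. OB-EB shared 7 named classes of at least 20 cells with MS-LS (definitive endoderm-like, endothelium-like, epiblast-like, extra-embryonic ectoderm-like, extra-embryonic mesoderm-like, primitive streak-like and visceral endoderm-like). It shared 6 with EHF, with notochord and node-like cells in place of the epiblast-like and primitive streak-like cells. The definitive endoderm-like class of MS-LS included a cluster of 128 cells led by *Dkk1* and *Fzd5*, with *Spink1* also among its leading genes.

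The share of all genes that were higher in OB-EB than in MS-LS was 16.5% in definitive endoderm-like, 13.8% in endothelium-like, 14.9% in epiblast-like, 9.64% in extra-embryonic ectoderm-like, 15.5% in extra-embryonic mesoderm-like, 12.3% in primitive streak-like and 6.36% in visceral endoderm-like cells. The share that was lower was 20.2%, 14.4%, 12.5%, 12.4%, 12.2%, 13% and 13.5% in the same order. Against EHF the share that was higher was 20.2% in definitive endoderm-like, 15.3% in endothelium-like, 10.7% in extra-embryonic ectoderm-like, 14.3% in extra-embryonic mesoderm-like, 23.2% in notochord and node-like and 14.1% in visceral endoderm-like cells. The share that was lower was 22.1%, 21.5%, 32.8%, 27.9%, 21.4% and 26.6% in that order. The counts of classes given for each member are to be read beside these shares.

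*Actb* was higher in OB-EB in every shared class, 7 of 7 against MS-LS and 6 of 6 against EHF. The log2 ratio to MS-LS was smallest in visceral endoderm-like cells (2.29, 2.26 to 2.33) and largest in epiblast-like cells (3.57, 3.52 to 3.61). In the latter *Actb* went from 1200 CPM in 691 MS-LS cells to 14204 CPM in 823 OB-EB cells. In the epiblast population that the study lists by barcode, it went from 2082 to 13251 CPM (log2 2.67). Among the study's populations that were compared, the largest ratio was in primitive streak cells (3.13). The low epiblast-like level of MS-LS and the place of that class therefore depended on how cells were named. Against EHF the log2 ratio ran from 2.56 in notochord and node-like cells to 3.58 in extra-embryonic ectoderm-like cells. The excess was thus present in embryonic and extra-embryonic classes alike.

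Within OB-EB the classes were close to each other in *Actb*. The lowest was notochord and node-like at 11335 CPM and the highest visceral endoderm-like at 17430 CPM, a 1.54-fold range, and of the 7 neighbouring pairs in that order 4 had overlapping intervals. Within MS-LS the order ran from 1200 CPM (epiblast-like) to 3562 CPM (visceral endoderm-like), with 1 of 7 neighbouring pairs overlapping. Within EHF it ran from 1011 CPM (caudal epiblast-like) to 1919 CPM (notochord and node-like), with 11 of 12 overlapping. Every class of OB-EB was above every class of the other libraries.

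*Actg1* was called higher in OB-EB in no shared class. Its log2 ratio to MS-LS lay between -0.46 in visceral endoderm-like and -0.11 in extra-embryonic ectoderm-like cells, in no class past 1.5-fold. Its ratio to EHF lay between -1.59 and -1.07 and was past it in 6 of 6. In the primitive streak population that the study lists by barcode, the *Actg1* log2 ratio to MS-LS was -0.59 (-0.71 to -0.47), just past 1.5-fold. The primitive streak-like class gave -0.32, and its 120 MS-LS cells were deep, with a median of 8442 UMIs. The ratio of *Actb* to *Actg1* UMIs ran from 10.7 (primitive streak-like) to 17.6 (endothelium-like) over the named OB-EB classes. It ran from 1.05 (epiblast-like) to 2.21 (endothelium-like) in those of MS-LS with at least 20 cells, and from 0.386 (definitive endoderm-like) to 0.803 (notochord and node-like) in those of EHF. The 3 ranges did not meet.

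**Figure D3:**
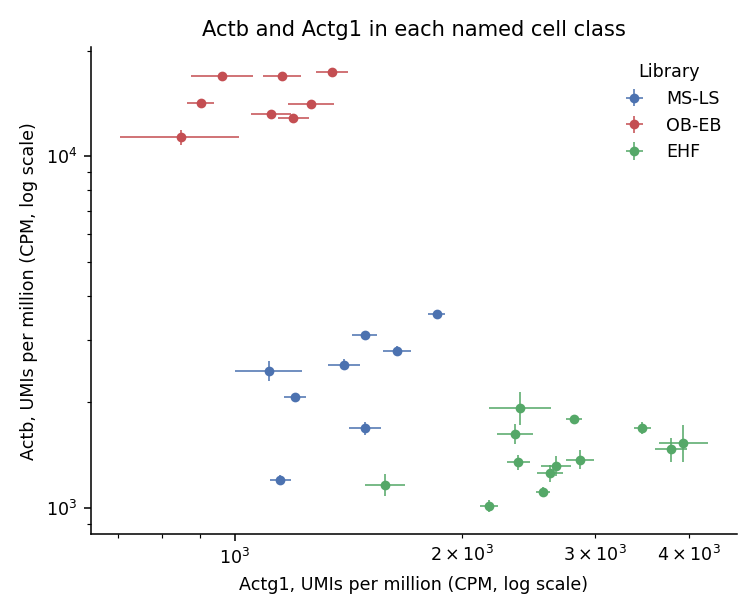
*Actb* against *Actg1* in CPM, both on log axes, with 1 point for each named cell class of at least 20 cells in each library and exact 95% Poisson intervals as bars. The OB-EB classes lie together at 11335 to 17430 CPM of *Actb*, apart from the MS-LS and EHF classes, and the EHF classes lie farthest along *Actg1*.

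*Tmsb10* was also higher in OB-EB than in MS-LS in 7 of 7 classes, by log2 0.79 in extra-embryonic ectoderm-like to 1.36 in visceral endoderm-like cells. Against EHF it passed 1.5-fold in 2 of 6 classes, with log2 ratios of 0.27 in endothelium-like to 1.44 in visceral endoderm-like cells. *Tmsb10* depended strongly on the class. It was lowest in visceral endoderm-like cells of each library, at 422.0, 1081 and 397.4 CPM in MS-LS, OB-EB and EHF, and its highest class level was 3888 CPM in MS-LS (definitive endoderm-like), 7970 CPM in OB-EB (extra-embryonic mesoderm-like) and 5863 CPM in EHF (definitive endoderm-like). *Tmsb4x* had its lowest level in the same cells, at 46.2, 80.2 and 127.0 CPM, and reached 1382 CPM in parietal endoderm-like cells of EHF. It was higher in OB-EB than in MS-LS in 2 of 7 classes, extra-embryonic mesoderm-like (log2 0.97) and visceral endoderm-like cells (0.80), with a ratio above 0 in 6 of 7. Against EHF it was lower in OB-EB in 4 of 6 classes, with log2 ratios of -1.94 in definitive endoderm-like to 0.06 in extra-embryonic ectoderm-like cells. Both thymosin genes were therefore low in the visceral endoderm-like class, where *Actb* was highest in MS-LS and OB-EB.

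*Pfn1* was highest in endothelium-like cells of each library, at 4578, 6156 and 3396 CPM. Its log2 ratio to MS-LS stayed between 0.33 and 0.59 and passed 1.5-fold in 1 of 7 classes, and to EHF it lay between 0.86 and 1.56 and passed in 6 of 6. *Cfl1* was highest in epiblast-like cells of MS-LS (2719 CPM) and OB-EB (2676 CPM), with a log2 ratio between those libraries of -0.16 to 0.36 over the classes, above 0 in 2 of 7 and past the threshold in none. Against EHF *Cfl1* passed it in 4 of 6 classes.

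The Arp2/3 subunits were higher in OB-EB in no shared class. *Arpc5l* was lower than in MS-LS in 5 of 7 classes (log2 -0.95 to -0.50), and *Arpc2* and *Arpc3* each in 1 of 7. Against EHF *Arpc2* was lower in 4 of 6, *Arpc3* in 3 of 6 and *Arpc5l* in 0 of 6.

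Of 1140 genes with enough UMIs in all 7 classes shared with MS-LS, 4.82% were higher in OB-EB in all of them, and of the 9 members *Actb* and *Tmsb10* were. Of 460 genes with enough UMIs in the 6 classes shared with EHF, 10.4% were higher in OB-EB in all, and *Actb* and *Pfn1* were, of the 6 members that could be tested. *Actg1* was the member lower in all 6, beside 9.35% of those genes. *Actb* is in the counts of higher genes by the choice of the set, which leaves *Tmsb10* against MS-LS and *Pfn1* against EHF. Between the outer stages *Actg1* was higher and *Actb* lower in EHF in all 6 shared classes, beside 3.62% and 6.18% of 1327 genes.

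**Figure D4:**
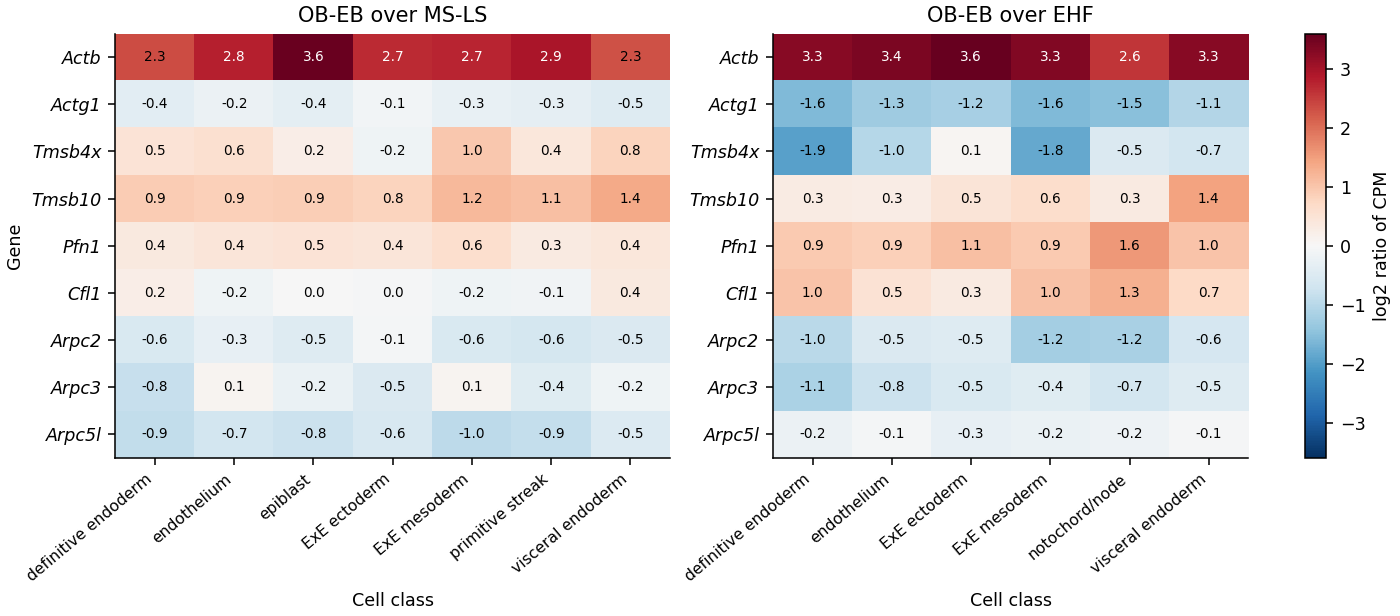
Log2 ratio of CPM, OB-EB over MS-LS in 7 shared cell classes and OB-EB over EHF in 6, for each of the 9 genes, with the colour and the printed value giving the ratio (ExE, extra-embryonic). *Actb* is 2.29 or more everywhere, *Tmsb10* and *Pfn1* are above 0 everywhere, and *Actg1*, *Arpc2* and *Arpc5l* are below 0 everywhere.

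To compare single cells at 1 depth, each cell was thinned to 1500 UMIs, which left out 101 MS-LS, 406 OB-EB and 165 EHF cells with fewer. The median cell then had 2 *Actb* UMIs in MS-LS, 18 in OB-EB and 1 in EHF. The middle 90% of cells ran from 0 to 12, from 2 to 55 and from 0 to 5. More than 20 *Actb* UMIs were found in 47.3% of OB-EB cells, against 0.594% in MS-LS and 0.691% in EHF. At least 1 *Actb* UMI was found in 86.4% of cells of MS-LS, 99.5% of OB-EB and 78.9% of EHF (96.9%, 99.8% and 96.6% before thinning). No cell class is known to lack *Actb*, so the part of free RNA in these counts was not tested.

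*Actb* was far more uneven between cells than *Actg1*. The variance of the thinned counts over their mean was 4.37 in MS-LS, 14.3 in OB-EB and 4.38 in EHF for *Actb*, and 1.19, 1.18 and 1.32 for *Actg1*. This measure can rise with the mean, which for *Actb* was 3.48, 22.5 and 2.08 UMIs per thinned cell. It is therefore not used to rank the libraries by unevenness. In OB-EB the lowest 25% of cells had at most 6 *Actb* UMIs and the highest 25% had at least 37, up to 98. *Actb* CPM over 7 bins of cell depth stayed between 14438 and 16229 in OB-EB, between 2099 and 2931 in MS-LS and between 1201 and 2269 in EHF, so the excess was there at every depth. *Tmsb10* by contrast ran from 2324 to 7346 CPM over the OB-EB bins, a 3.16-fold range, and from 2727 to 5442 CPM over the EHF bins. In cells of 2000 to 3000 UMIs it stood at 6553 CPM in OB-EB and 4921 CPM in EHF. Above 10000 UMIs it stood at 2324 CPM in OB-EB, with 20 cells, and 2727 CPM in EHF. The size of its excess over EHF therefore differed with depth, and the direction turned in the deepest bin. Some other members also differed with depth. At 2000 to 3000 UMIs *Pfn1* stood at 4509 CPM in OB-EB and 2769 CPM in MS-LS. At 6000 to 10000 UMIs it stood at 3530 and 2919 CPM. In the same bins *Cfl1* stood at 2401 and 1490 CPM in OB-EB, and at 894 and 908 CPM in EHF. *Arpc2* stood there at 161 and 237 CPM in OB-EB, and at 250 and 268 CPM in MS-LS.

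**Figure D5:**
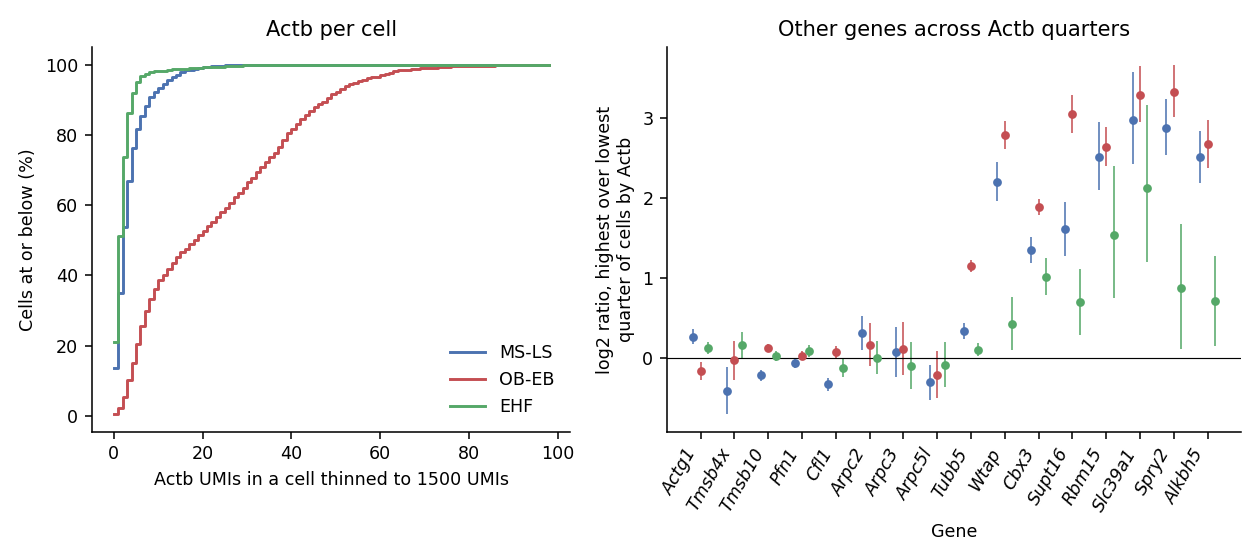
Left, percent of cells at or below each *Actb* UMI count after thinning to 1500 UMIs, 1 line per library, with medians of 2 in MS-LS, 18 in OB-EB and 1 in EHF. Right, log2 ratio of the other 8 members and 8 more genes between the highest and lowest 25% of cells by *Actb*, with 95% counting intervals, where in OB-EB *Tmsb10* (0.12) and *Pfn1* (0.02) lie near 0 and *Spry2* (3.33) far above it.

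The uneven *Actb* of OB-EB was not shared by the other members. Across the 3588 thinned OB-EB cells, Pearson's r of log2(UMIs + 1) with *Actb* lay between -0.07 (*Actg1*) and 0.02 (*Arpc3*) for the other 8. The correlations describe cells of 1 library at 1 depth, and the counts are sparse. Set against the same measure for 2231 genes with at least 300 UMIs after thinning, the highest r were those of *Wtap* (0.57), *Cbx3* (0.54), *Supt16* (0.51), *Rbm15* (0.43), *Tubb5* (0.41), *Slc39a1* (0.40), *Spry2* (0.39), *Paip1* (0.38) and *Alkbh5* (0.36). *Wtap* and *Rbm15* are parts of the complex that writes m6A on mRNA and *Alkbh5* removes that mark, *Supt16* is part of the histone chaperone FACT, and *Tubb5* is a β-tubulin. In MS-LS the same measure gave *Wtap* 0.37, *Alkbh5* 0.35, *Spry2* 0.33 and *Cbx3* 0.29, with the 8 members between -0.12 and 0.08, and 7 of the 10 highest genes were the same as in OB-EB. In EHF the highest were lower, with *Cbx3* at 0.20 and *Supt16* at 0.12, and 2 of the 10 were the same.

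Within the 8 named OB-EB classes r ran from 0.37 to 0.65 for *Wtap* and from 0.44 to 0.63 for *Cbx3*. It ran from -0.34 to 0.06 for *Actg1* and from -0.05 to 0.09 for *Tmsb10*. The pattern was therefore found inside classes and not only between them. In MS-LS, a cluster of 200 cells without a name was led by *Spry2*, *Rpgrip1*, *Alkbh5*, *Rbm15* and *Wtap*, genes that were left in the clustering, while the 9 members and the pathway lists were held out of it. The 95th percentile of thinned *Actb* was 4 UMIs in MS-LS epiblast-like cells and 12 in MS-LS cells without a name. Whether cells high in *Actb* were sorted out of the epiblast-like class, which would lower its *Actb* level, was not tested.

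The OB-EB cells were also split into 4 equal parts of 897 cells by thinned *Actb*, and the other genes were given as CPM of the UMIs left without *Actb*. From the lowest to the highest part, the log2 ratio was 0.12 for *Tmsb10*, 0.02 for *Pfn1*, 0.07 for *Cfl1* and -0.17 for *Actg1*. All 8 other members lay between -0.21 (*Arpc5l*) and 0.16 (*Arpc2*), over a range that took *Actb* from 2557 to 31862 CPM by the choice of cells. Over the same cells the log2 ratio was 1.14 for *Tubb5*, 1.89 for *Cbx3*, 2.78 for *Wtap*, 3.05 for *Supt16*, 3.29 for *Slc39a1* and 3.33 for *Spry2*, genes singled out by the correlation on these cells.

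Over the 29 combinations of library and named class (8 of MS-LS, 8 of OB-EB and 13 of EHF), the genes whose log2 CPM followed *Actb* most closely were *Slc39a1* (Pearson's r 0.97), *Yme1l1* (0.96), *Gnb1* (0.95), *Hsf2* (0.95) and *Pan3* (0.95), of 5146 genes. Points of 1 library share its depth and handling. Among the members *Pfn1* came closest (0.72, rank 139), then *Cfl1* (0.44) and *Tmsb10* (0.16). The remaining members were negative, from -0.32 for *Tmsb4x* to -0.71 for *Actg1*. None of the 5 closest genes encodes an actin or an actin-binding protein.

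The wider actin pathway was taken from lists of 76 further genes, of which 69 had enough UMIs to compare OB-EB with MS-LS. Of these 12 were higher and 6 lower in OB-EB, 17.4% and 8.70%, beside 11.3% and 13.6% of all genes, and their median log2 ratio was 0.01 beside -0.09. Relative to that median of all genes, 15 were higher and 6 lower. Against EHF 72 could be compared, with 8 higher (11.1%) and 20 lower (27.8%), beside 11% and 37% of all genes, and a median of -0.21 beside -0.37. Relative to the median of all genes the split there was 19 higher and 11 lower, so which direction held more genes turned with the centring. No further member of the pathway came near *Actb*, with a highest log2 ratio to MS-LS of 1.69 for *Mkl2* and to EHF of 1.65 for *Tmsb15b1*.

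By role, the monomer-binding, severing and turnover genes had 3 higher and 1 lower of 10 against MS-LS, where 11.3% of all genes were higher and 13.6% lower. With so few calls in lists of this length, no list is read as set apart from all genes. The highest were *Tmsb15b2* (log2 1.61) and *Tmsb15l* (1.17), near-identical thymosin copies between which reads can be split, and *Gsn*, the severing protein gelsolin, was lowest (-1.02). The capping and elongation list had 2 higher and 1 lower of 9, led by the capping protein gene *Capza1* (0.96). The bundling and membrane-linkage list had 2 higher and 1 lower of 14, from *Marcks* (1.25) to *Ezr* (-0.86).

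The other 6 Arp2/3 subunits had 0 higher and 1 lower, *Arpc1b* (-0.69), with *Actr3* at -0.01, beside 0 higher and 1 lower of the 3 members. Tropomyosin, calponin and nonmuscle myosin genes had 3 higher and 1 lower of 13 against MS-LS, from *Tpm4* (0.79) to *Tagln2* (-1.01). Against EHF they had 1 higher and 6 lower of 14, with *Cnn2* lowest at -2.06, beside 11% and 37% of all genes.

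*Srf*, the factor through which actin monomers act on transcription, stood at log2 0.00 against MS-LS, while its cofactor genes *Mkl2* and *Mkl1* stood at 1.69 and 0.53. The muscle actin genes *Acta1*, *Acta2*, *Actc1* and *Actg2* had too few UMIs for the comparison with MS-LS. Against EHF, the stage in which cardiac mesoderm-like cells were found, *Acta2* (-5.02) and *Actc1* (-2.61) were lower in OB-EB.

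Of genes outside the actin pathway, 1 of 10 tubulins was higher and 2 were lower in OB-EB than in MS-LS, beside 11.3% and 13.6% of all genes, which also stand beside the next 2 lists. The higher one was *Tubb5*, at 1120, 2708 and 1750 CPM in MS-LS, OB-EB and EHF (log2 1.27 and 0.63), while the others lay between -0.79 and 0.10. The housekeeping list had 1 higher and 3 lower of 12, with *Gapdh* at -0.11, *Ppia* at -0.45 and *Eef1a1* at -0.74. The list of immediate-early and dissociation-response genes, which can be set by handling, had 1 higher (*Jund*, 1.11) and 6 lower of 14, with *Hspa1a* lowest at -3.23. The part of handling in the *Actb* excess was not tested. Among the 354 genes at 500 CPM or more in either library, *Alyref*, an mRNA export factor named after its value was seen, was the only one with a higher ratio of OB-EB to MS-LS than *Actb*, and 7 of 357 had a higher ratio to EHF.

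Base composition at the transcript end, which can bias a 3′ library, was set beside the ratios. Over genes, Spearman's correlation between GC in the last 300 bases and the log2 ratio was -0.10 for OB-EB over MS-LS and -0.34 for OB-EB over EHF. The *Actb* end had 47.0% GC, within the range of 34.3% to 53.7% for the members. For transcript length in place of GC, the correlations were 0.24 and 0.17. The *Actb* transcript had 1920 bases, within 690 (*Tmsb10*) to 2354 (*Cfl1*) for the members. Neither trait was tested as a source of the ratios. Between cells called female and male by sex-linked genes, *Actb* was at 14453 and 14519 CPM in OB-EB, at 2462 and 2576 CPM in MS-LS and at 1291 and 1350 CPM in EHF. The female share of called cells was 51.7%, 63.2% and 85.7% in MS-LS, OB-EB and EHF, while *Actb* was nearly level between the sexes within each. X-linked *Tmsb4x* stood at 144.5 CPM in female and 138.1 CPM in male cells of MS-LS and at 414.3 and 411.5 CPM in those of EHF, with overlapping intervals in both. In OB-EB it stood at 212.5 and 162.1 CPM, with intervals that did not overlap. This was not particular to the X-linked gene. Intervals in OB-EB were also apart for *Tmsb10* (5649 and 4951 CPM), *Pfn1* (4171 and 3933) and *Cfl1* (1999 and 1732). They were apart in the other direction for *Actg1* (1037 and 1154) and *Arpc2* (173.6 and 209.6). Nor was it particular to OB-EB. In MS-LS intervals were apart for *Actg1* (1349 and 1470), *Tmsb10* (2210 and 2387) and *Cfl1* (1864 and 1699). In EHF they were apart for *Actg1* (2655 and 2540), *Pfn1* (1957 and 2044) and *Cfl1* (911 and 852).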

How the data were processed

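Whole embryos were dissociated and read as Chromium 3′ libraries (v2 chemistry), which count UMIs. Per the labels, the authors used Cell Ranger 3.0.2, R 3.6.1, Seurat 3 and GRCm38, and the deposited tables hold raw UMI counts per gene and cell. The EHF counts were deposited in 2 tables that were identical in all 65128160 places (21 gene names differ), so they were counted as 1 library. With 1 library per stage, no test, p-value or standard deviation was computed.

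Counts were summed over each library or class, and genes with at least 100 UMIs over both libraries of a pair were compared, with calls at 1.5-fold. Intervals are exact (Poisson, or conditional binomial for ratios) at 95% and cover counting error only. The summing and intervals used scipy 1.17.1 with numpy 2.4.6 in Python 3.11.15, tables pandas 2.3.3, the second clustering and doublet scores scanpy 1.11.5, and plots matplotlib 3.10.9. Classes came from Seurat 5.3.0 in R 4.3.3 (2000 variable genes, 50 components, resolution 4.5, scale factor 10000), with the 85 members and actin pathway genes held out. A cluster was named where 3 markers were found in at least 20% of its cells at 2-fold or more and its 10 leading genes, each in at least 25% of cells, did not go against the name. An epiblast name was withheld in EHF after *Otx2*, *Sox2* and *Irx5* were seen to lead its cluster. Doublets were kept, since the caller Scrublet marked 6, 0 and 13 cells of MS-LS, OB-EB and EHF, too few to have worked. Correlations over classes used log2 of CPM plus 10.

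The members and lists were chosen with earlier results of these data known. Named genes were the 9 members, the extremes of each list, the genes most correlated with *Actb* over cells and the 5 most like it over classes. *Actb*, *Actg1*, *Pfn1*, *Cfl1* and the thymosins have pseudogenes or close copies, so their counts depend on how shared reads were handled. The result of 1 list is not reported here. The scripts were checked on simulated data. Other totals, cell filters, thinning, classes and thresholds were tried as alternatives.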

Additional observations from a re-analysis of the deposited data

How the results depend on the processing

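No paired analysis was possible because each stage is 1 library, and for the same reason no library could be left out. No called member ratio of OB-EB to MS-LS or to EHF changed sign in any of its 12 alternatives. Alternatives were not run for EHF over MS-LS. Of the ratios that were not called, *Cfl1* over MS-LS turned to -0.06 without extra-embryonic and unnamed cells and *Arpc5l* over EHF to 0.15 relative to the median of all genes, and the pathway genes against EHF went from 8 higher and 20 lower to 19 and 11 with that centring. The *Actb* log2 ratio of OB-EB over MS-LS (2.63) was 2.71 relative to the median of all genes, 2.65 with totals that leave out the 9 members, 2.69 as a mean of single-cell CPM, 2.69 after thinning, 2.82 in cells of 2000 to 4000 UMIs, 2.76 as a mean over classes, 2.79 without extra-embryonic and unnamed cells and 2.55 in female cells. Over EHF (3.51) it was, in the same order, 3.88, 3.54, 3.37, 3.44, 3.05, 3.23, 3.45 and 3.48, and 3.53 without mitochondrial and ribosomal protein genes, 3.53 in cells of at least 2000 UMIs and 3.53 without the 5% of cells with the highest doublet scores. With the cell populations the study lists by barcode, 4 of 4 shared classes were higher over MS-LS, where there were fewer classes to share. At 2-fold, 6 pathway genes were past the threshold against MS-LS (18 at 1.5-fold) and 13 against EHF (28). Counting *Actb*, the number of members higher in OB-EB was 2 or 3 against MS-LS, with *Pfn1* joining. Against EHF it was 3 or 4, with *Tmsb10* dropping out in 3 of 12 alternatives (log2 0.36 to 1.07 over the 12). *Arpc2* reached 1.5-fold against MS-LS in 3 of 12, and against EHF *Arpc2* was under it in 1 of 12 and *Arpc3* in 2 of 12. With *Otx2*-led EHF clusters also named epiblast-like, an alternative chosen after seeing the data, *Actb* stayed higher in OB-EB in 7 of 7 classes. Of 192 alternative values for the other 16 ratios, 109 stayed within the interval of the reported one and 83 moved outside it. Depth limits the Arp2/3 subunits most, which had 1271 to 2245 UMIs in OB-EB.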
